A study of Mus musculus with 2 samples.

Results

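Elastic fibres are built outside the cell from a core of elastin laid on a scaffold of fibrillin microfibrils, and they give arteries their recoil. Small microfibril-associated glycoproteins and fibulins bind the scaffold, lysyl oxidase joins elastin and collagen chains by crosslinks, and latent TGF-beta binding proteins dock the stored growth factor TGF-beta on the microfibrils. In the growing aorta these proteins are made mainly by smooth muscle cells and fibroblasts. The gene set described here was given as 8 named genes: Eln, Fbn1, Mfap2, Mfap5, Fbln1, Fbln2, Lox and Ltbp1. Probe sets were assigned to a gene by the platform's symbol after an update to current names. Of the 8 genes, 7 had at least 1 probe set, 13 probe sets in all, out of 8251 genes named on the array. No probe set carried the name Fbn1 in the annotation used here, so the fibrillin gene at the core of the label was not analysed here.

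The study measured total RNA of the mouse mesoangioblast clone D16 and of a second such clone, D351, on the Affymetrix array U74A, 1 per clone and without any treatment. Mesoangioblasts are vessel-associated progenitors that can be grown from the embryonic aorta. Both clones descend from the dorsal aorta of C57BL6 embryos of embryonic day 9.5, kept as an explant for 5 days, then cloned cell by cell over embryonic fibroblasts whose growth Mitomycin C had stopped, with 20% serum, and grown further on gelatin. Each clone is therefore 1 cell line from a single cell, and no label tells whether fibroblasts of the feeder layer were still present when RNA was taken.

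Values are scaled intensities on a linear scale. The floor, below which a value is treated as not measured, was 17.4, the 40th percentile of all values that are not controls; 60.7% of probe sets in D16 and 59.3% in D351 reached it. With 1 array per clone no test was possible, and every difference below is a size measured between these arrays. The only error open to measurement was how far probe sets of the same gene differ, an SD of 0.52 on the log2 ratio over 806 genes. It leaves out the spread between cultures. In bulk RNA, fewer cells of a type and less RNA per cell cannot be told apart. Of the defining markers of these cells, Thy1 and Acta2 reached the floor in each clone. Kit and Kdr were below it in both, and Cd34 measured 475 in D16 and 6.71 in D351. Pdgfrb, a receptor of pericytes, measured 54.4 in D16 and 197 in D351, 3.62-fold higher in D351.

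Among the elastic fibre and microfibril genes, the microfibril-associated genes Mfap2 and Mfap5 and the TGF-beta binding protein gene Ltbp1 were higher in D351 by 2-fold or more. The fibulin genes Fbln1 and Fbln2 and the crosslinking enzyme gene Lox were also higher there, but within 2-fold. Elastin itself was below the floor in both clones. Of the 6 genes that reached the floor in 1 clone or both, 3 were higher by 2-fold or more in D351 and 0 in D16. Over all 6098 genes measured in this way, 10.6% were higher by 2-fold or more in D351 and 8.87% in D16. Read by the brightest probe set, all 6 genes had a positive log2 ratio of D351 over D16, against 48.4% of all genes. Of their 10 measured probe sets 9 were positive and 1, the dimmer one of Mfap5, was negative. Their median was 1.32 beside -0.03 for all genes, but it falls in the gap between Fbln2 at 0.67 and Mfap5 at 1.98 and describes neither group well. Mfap2 reached the floor in D351 alone, so its presence in these counts required a difference.

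**Figure D1:**
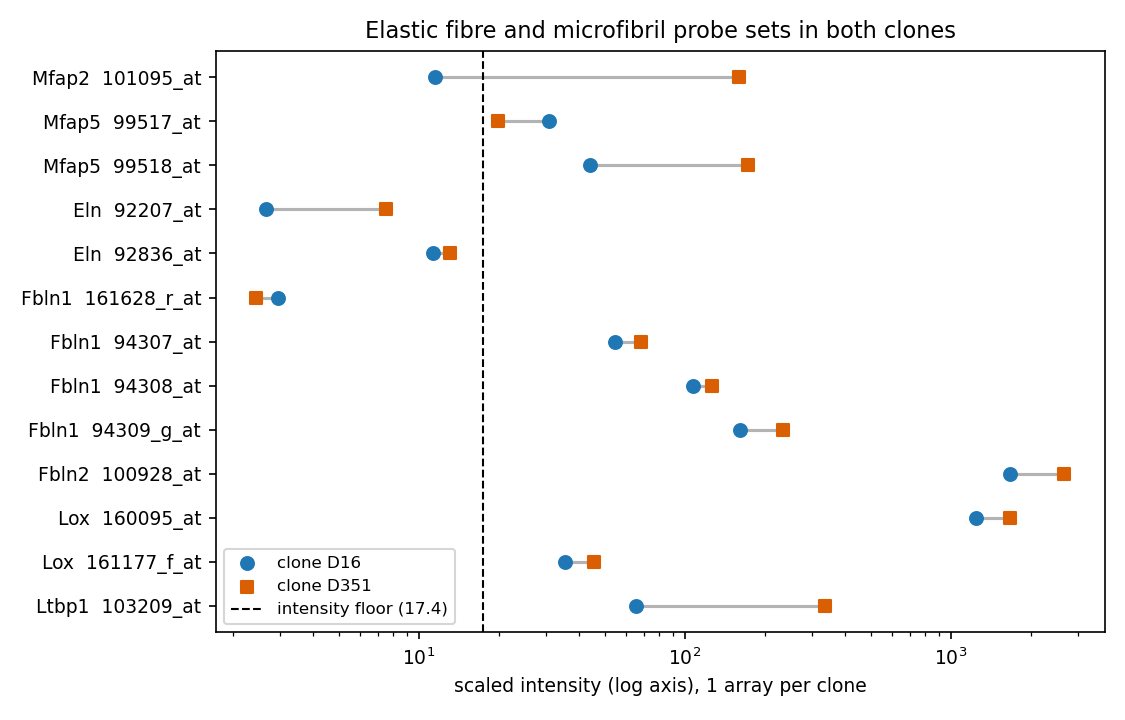
Scaled intensity on a log axis for the 13 probe sets of the 7 genes, with D16 as circles and D351 as squares, 1 array each, and the intensity floor of 17.4 as a dashed line. The widest gaps above the floor are those of Mfap2, Ltbp1 and the brighter Mfap5 probe set, the dimmer Mfap5 probe set points the other way, and both Eln probe sets lie left of the floor.

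Mfap2 encodes microfibril-associated glycoprotein 1, a small protein that binds fibrillin and tropoelastin. Its only probe set measured 11.5 in D16 and 160 in D351. D16 was thus below the floor and D351 well above it, which makes the gene at least 9.18-fold higher in D351. The bound of 3.20 on the log2 scale is set by the floor, so no rank or multiple of the probe set SD is given. It was 3.78 with a floor at the 25th percentile and 1.56 with one at the 60th. Mfap2 lies on chromosome 4.

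Ltbp1 encodes a large secreted protein that binds the latent form of TGF-beta and anchors it to fibrillin microfibrils. It measured 65.5 in D16 and 335 in D351, both above the floor, by its only probe set. The ratio was 5.12-fold, a log2 ratio of 2.36 or 4.56 times the probe set SD, and 82 genes had a higher one. Across the alternative settings the log2 ratio ran from 2.11 to 2.75, and no setting of the floor put the gene below it in either clone. The gene lies on chromosome 17.

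Mfap2 and Ltbp1 are shown with the sequence before their start sites, because these genes carry the largest differences of the set. RefSeq lists 2 start sites for each, and which of them was in use in either clone was not measured. The 250 bases before each start were taken from RefSeq, build GRCm38.p6, all on the + strand. They are chr4:141010174-141010423 and chr4:141010431-141010680 for Mfap2, and chr17:75005279-75005528 and chr17:75178531-75178780 for Ltbp1. Capitals mark matches, on either strand, to any of 6 motifs, which are the TATA motif TATAAA, the Sp motif GGGCGG, the AP-1 motif TGANTCA, the SMAD motif CAGAC, the TEAD motif CATTCC and the CArG box of serum response factor.
Mfap2 start 1: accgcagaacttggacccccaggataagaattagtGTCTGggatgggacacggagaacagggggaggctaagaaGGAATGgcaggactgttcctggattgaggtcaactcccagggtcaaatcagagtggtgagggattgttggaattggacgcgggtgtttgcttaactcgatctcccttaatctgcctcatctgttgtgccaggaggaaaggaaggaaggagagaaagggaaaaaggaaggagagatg
Mfap2 start 2: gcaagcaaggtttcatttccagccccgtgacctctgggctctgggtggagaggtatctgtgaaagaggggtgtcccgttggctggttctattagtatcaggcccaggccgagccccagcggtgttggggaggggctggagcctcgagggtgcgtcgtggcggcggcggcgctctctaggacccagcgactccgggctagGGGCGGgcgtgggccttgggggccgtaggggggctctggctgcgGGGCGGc
Ltbp1 start 1: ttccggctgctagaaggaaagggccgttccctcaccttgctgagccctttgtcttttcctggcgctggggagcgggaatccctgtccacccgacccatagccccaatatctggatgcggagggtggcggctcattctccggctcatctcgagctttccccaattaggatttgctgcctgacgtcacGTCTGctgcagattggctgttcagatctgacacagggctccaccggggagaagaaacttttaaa
Ltbp1 start 2: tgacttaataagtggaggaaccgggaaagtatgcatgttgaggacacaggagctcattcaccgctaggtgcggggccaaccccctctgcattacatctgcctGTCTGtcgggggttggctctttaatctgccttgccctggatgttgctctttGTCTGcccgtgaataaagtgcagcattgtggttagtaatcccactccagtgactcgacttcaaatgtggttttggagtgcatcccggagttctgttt
The upstream start of Mfap2 had 1 CAGAC match at position -215 and 1 CATTCC match at -176, both on the opposite strand, counted from the start site to the leftmost base of the match. The downstream start of Mfap2, in sequence with 68.8% G or C against a median of 52.4% over all windows, had GGGCGG at -51 and -7. The upstream start of Ltbp1 had 1 CAGAC match at -64 and the downstream start had 2, at -148 and -97, all on the opposite strand. None of the 4 windows held the TATA motif, the AP-1 motif or a CArG box, and no match overlapped another. In the 250 bases before the start, the SMAD motif stood in 42.2% of all 32851 windows, the Sp motif in 32.7% and the TEAD motif in 12.6%. The TATA motif stood in 12.4%, the AP-1 motif in 6.75% and the CArG box in 1.47%. These matches are letters in a window and no record of binding. Windows were also listed for Fbln1 and Fbln2, 7 in all for 4 genes. The Fbln1 windows held CAGAC and, in 1 of them, GGGCGG, and the Fbln2 window held GGGCGG alone.

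Mfap5 encodes microfibril-associated glycoprotein 2, a second fibrillin-binding protein, and its 2 probe sets disagreed. The brighter one measured 44.0 in D16 and 173 in D351, a 3.93-fold higher level in D351 and a log2 ratio of 1.98. The dimmer one measured 30.8 in D16 and 19.8 in D351, both near the floor, a 1.55-fold higher level in D16 and a log2 ratio of -0.63. A gap of 2.61 or more, as between them, was found in 8 of 806 genes with several measured probe sets (0.993%), Mfap5 itself included. The median gap was 0.42. With the mean of both probe sets the log2 ratio of Mfap5 was 0.67, and the number of genes past 2-fold in D351 became 2. The direction of Mfap5 thus rests on which probe set is read, and what each detects was not tested.

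Elastin gave no measured level. The 2 Eln probe sets read 11.3 and 2.65 in D16 and 13.0 and 7.53 in D351. All 4 readings were below the floor, so no ratio is given, and a reading below the floor does not show that the transcript is absent. Some probe sets of the first version of this array are known to have been faulty, and whether those of Eln or Mfap5 are among them was not tested. Eln lies on chromosome 5.

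**Figure D2:**
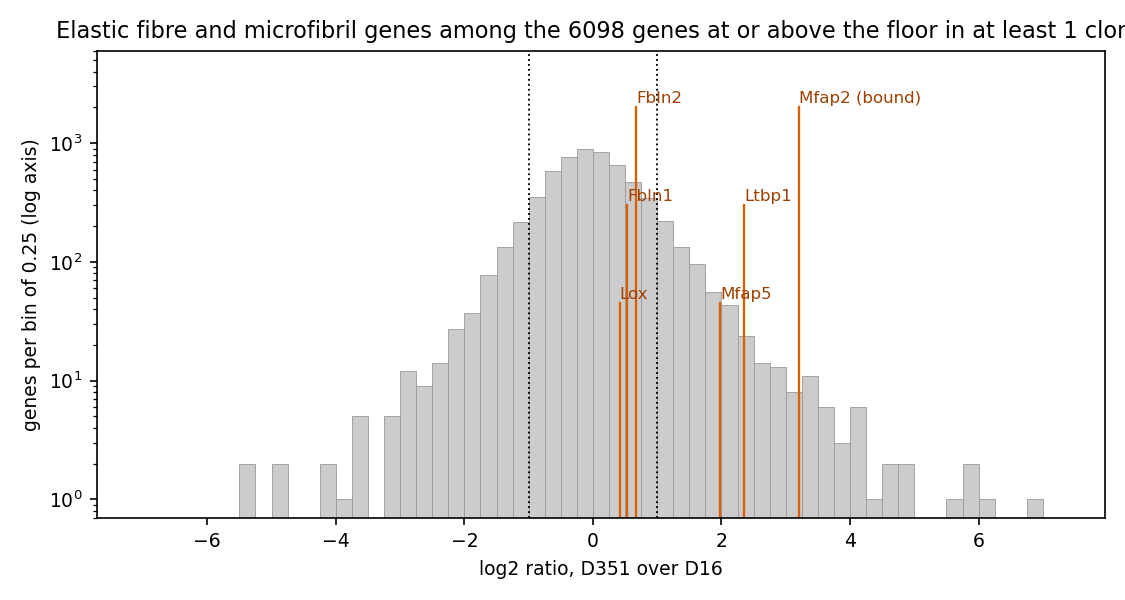
Histogram of the log2 ratio of D351 over D16 for the 6098 genes measured in 1 clone or both (genes per bin, log axis), with the 6 measured elastic fibre and microfibril genes as vertical lines and the 2-fold limits dotted. Lox, Fbln1 and Fbln2 stand right of 0 inside the 2-fold limit, and Mfap5, Ltbp1 and Mfap2, the last a lower bound, stand in the right tail.

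The fibulins are secreted proteins of calcium-binding EGF-like repeats that join elastic fibres, fibronectin and basement membranes. Fbln2 measured 1675 in D16 and 2670 in D351, 1.59-fold higher in D351 with a log2 ratio of 0.67. That is 1.30 times the probe set SD, and 1125 of all genes had a higher ratio. Fbln1 had 3 probe sets above the floor. They measured 54.8, 107 and 162 in D16 and 68.6, 127 and 233 in D351, log2 ratios of 0.32, 0.24 and 0.53, and the fourth was below the floor in both clones. All 3 measured probe sets were higher in D351, by no more than about 1 SD. The brightest has a name with the suffix g, and which probes or transcripts it shares with other probe sets was not tested. Read without suffixed probe sets, Fbln1 had a log2 ratio of 0.24. Fbln1 lies on chromosome 15, while Fbln2 and Mfap5 lie on chromosome 6.

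Lox encodes lysyl oxidase, the copper-dependent enzyme that starts the crosslinking of elastin and collagen. Its brighter probe set measured 1246 in D16 and 1661 in D351, a 1.33-fold higher level in D351. The dimmer one, which can share targets with other genes, measured 35.3 and 45.4. The log2 ratios of 0.41 and 0.36 agreed within 0.05 and were both smaller than the probe set SD of 0.52, so the clones were not distinguished for Lox by this measure. When hybridization controls set the scale instead, Lox had 0.81, Fbln1 0.92 and Fbln2 1.07. Fbln2 then passed 2-fold and the count became 4 of 6, while the counts over all genes became 1214 higher in D351 and 250 in D16, in place of 645 and 541, and the median of all genes 0.34.

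**Figure D3:**
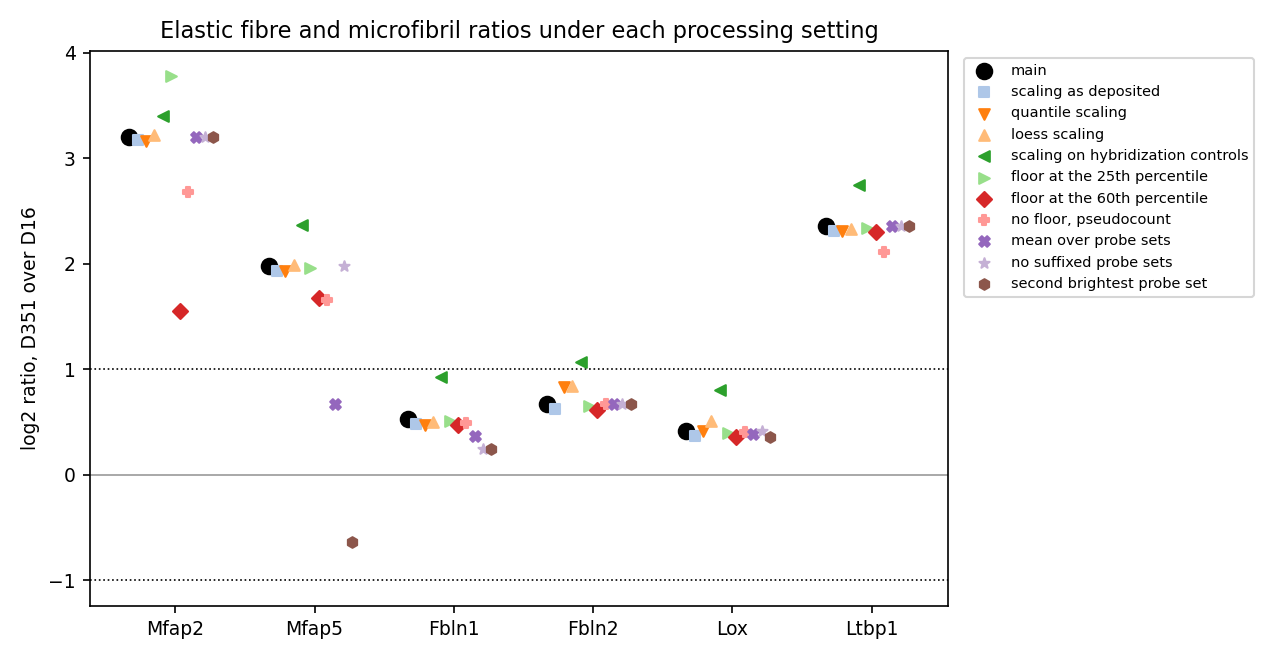
Log2 ratio of D351 over D16 for the 6 measured genes under the main setting (black) and 10 other processing settings, with the 2-fold limits dotted. Ltbp1 stays between 2.11 and 2.75, Mfap2 ranges from 1.56 to 3.78 with the floor, and Mfap5 falls below 0 when its dimmer probe set is read.

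The other genes of elastic fibre assembly were grouped in 6 lists with 64 genes on the array. Of the 54 measured, 15 were higher by 2-fold or more in D351 and 3 in D16, and the median log2 ratio was 0.42. Over all measured genes the shares were 10.6% in D351 and 8.87% in D16, and they stand beside each list count below. A count of 1 gene in so short a list is not read as a result about the list. Among microfibril and fibulin relatives only 5 of 22 genes were on the array by name, and the clones parted by family member. Ltbp2, a fibrillin-binding relative that does not hold TGF-beta, measured 57.5 in D16 and 123 in D351, a 2.13-fold higher level in D351, the same direction as Ltbp1. Ltbp4, a latent TGF-beta binding protein that also takes part in elastic fibre assembly, measured 244 in D16 and 98.6 in D351, a 2.47-fold higher level in D16. The second fibrillin gene Fbn2, with 2.36 and 21.6, Ltbp3, with 9.14 and 22.5, and Mfap4, with 21.0 and 4.99, were each below the floor in 1 clone and near it in the other. The lower bounds, 1.24-fold for Fbn2 and 1.29-fold for Ltbp3 (D351 higher) and 1.21-fold for Mfap4 (D16 higher), do not reach 2-fold and leave the true size unknown. These 3 genes were named after their values were seen. With the floor at the 25th percentile, 3 genes of this list passed 2-fold in D351 in place of 1, and its median was 1.07 in place of 0.31.

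Of the genes for enzymes that mature and crosslink elastin and collagen and their helpers, 5 of 11 measured passed 2-fold in D351 and 0 in D16; the median was 0.89. Tll1, a protease related to Bmp1, measured 12.4 in D16 and 88.4 in D351, at least 5.08-fold higher in D351. Atp7a, the copper pump that loads lysyl oxidase, measured 39.4 and 150, a 3.82-fold higher level in D351, and its other probe set gave a log2 ratio of at least 2.66. Bmp1, which cleaves procollagens and pro-lysyl oxidase, measured 130 and 265, a 2.04-fold higher level, and its other probe set gave 0.91. Postn, a matricellular protein that helps Bmp1 to act on lysyl oxidase, was 2.94-fold higher, at 415 and 1220, and the collagen prolyl hydroxylase gene P4ha1 2.81-fold, at 150 and 421. Loxl1, the lysyl oxidase relative that acts on elastin, was named after its values were seen. It measured 45.1 and 83.4, a log2 ratio of 0.89, within 2-fold as Lox was.

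Among receptors for elastin and microfibrils, 2 of 7 measured genes passed 2-fold in D351 and 1 in D16 (median 0.59). Itgb5, an integrin chain that pairs with the alpha v chain on RGD ligands, measured 107 in D16 and 562 in D351, 5.23-fold higher in D351, with a log2 ratio of 0.87 by its other probe set. Ctsa, a lysosomal protein of the elastin receptor complex, was 2.93-fold higher in D351, at 145 and 423. Lgals3, a galectin that binds elastin, went the other way, 3.60-fold higher in D16 at 301 and 83.7. This list thus held large differences in both directions.

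Elastin-degrading proteases and their inhibitors had a median of 0.16, with 3 of 13 measured genes past 2-fold in D351 and 1 in D16. The protease genes Mmp14 and Ctsk were each 2.31-fold higher in D351, at levels of 429 and 992 for Mmp14 and of 31.4 and 72.4 for Ctsk. Timp2, a metalloprotease inhibitor, was 4.30-fold higher there, at 52.5 and 225. Slpi, a secreted inhibitor of leukocyte elastase, had the widest ratio of the 6 lists, in the other direction. Its brightest probe set measured 768 in D16 and 3.87 in D351, at least 44.1-fold higher in D16. Its other probe sets had log2 ratios of -2.87, with 388 and 53.1, and -0.26, with 40.4 and 33.7, so that the sign agreed in all 3 and the size did not.

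**Figure D4:**
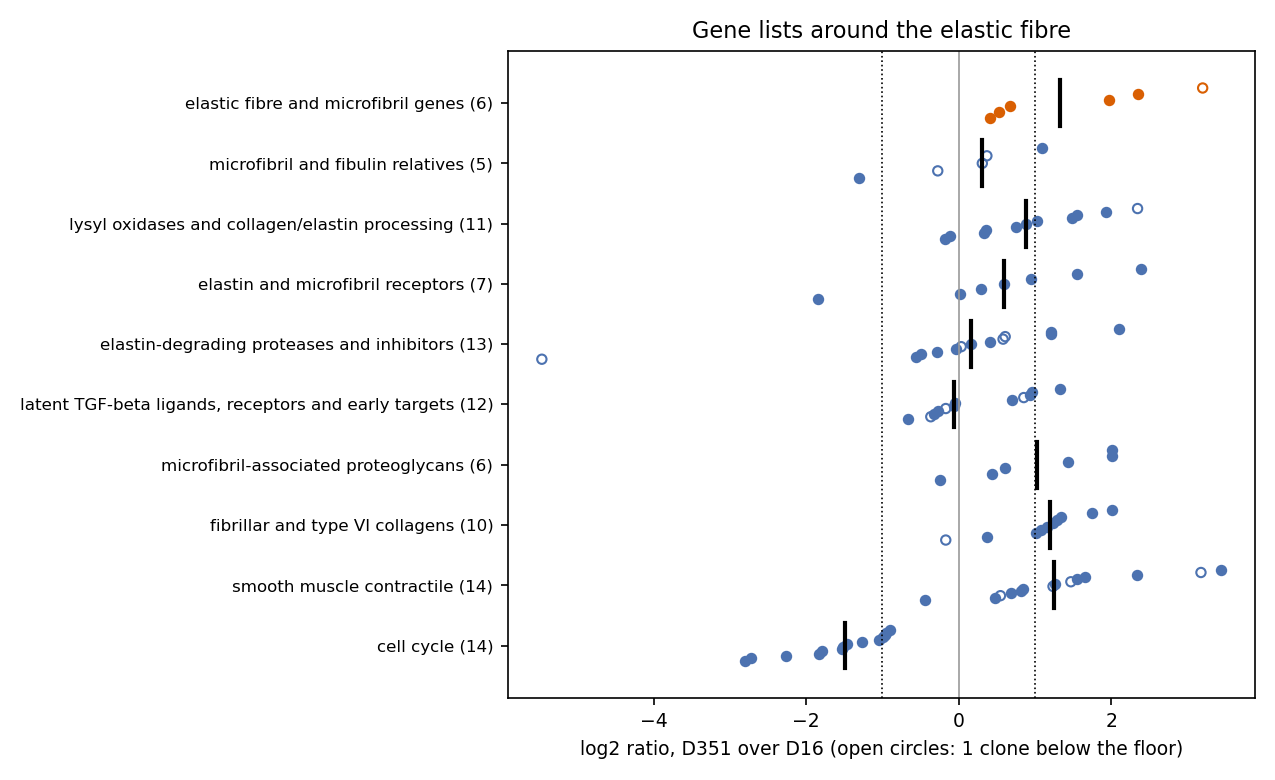
Log2 ratio of D351 over D16 for each measured gene (points, open where 1 clone was below the floor) of the elastic fibre and microfibril genes and 9 other lists, with the list median as a black bar and the number of measured genes in brackets. The collagen and smooth muscle medians are 1.20 and 1.25 beside 1.32 for the elastic fibre and microfibril genes, which is 0.67 when their probe sets are averaged, the TGF-beta median lies at -0.06, and the cell cycle median lies at -1.50.

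The TGF-beta system that Ltbp1 serves had a median near that of all genes. Of 12 measured ligand, receptor and target genes, 1 passed 2-fold in D351 and 0 in D16, and the median was -0.06. That gene was Ccn2, a TGF-beta target that encodes a matricellular growth factor, at 338 in D16 and 851 in D351 (2.52-fold). Tgfb3, named after its values were seen, measured 140 and 270, a log2 ratio of 0.94, just inside 2-fold. Tgfb1 and Tgfb2, also named afterwards, were each below the floor in 1 clone and had levels of 22.4 and 14.3 and of 10.5 and 31.4. Tgfbi, Nrep, Smad2 and Smad7, also named afterwards, had log2 ratios of 0.97, 0.71, -0.67 and -0.27. The list median thus joins genes of both directions. Scaled on hybridization controls, 5 genes of the list passed 2-fold in D351, and the median was 0.34, as for all genes. At 1.5-fold, 5 were higher in D351, beside 1285 of all 6098 genes. Of the proteoglycans that bind microfibrils or collagen, 3 of 6 measured genes passed 2-fold in D351 and 0 in D16 (median 1.02). Ogn was 4.04-fold higher, at 166 and 671, Lum 4.02-fold, at 23.4 and 94.0, and the perlecan gene Hspg2 2.70-fold, at 107 and 289.

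The elastic fibre and microfibril genes were set beside the lists nearest to them. Fibrillar and type VI collagen genes had 8 of 10 measured genes past 2-fold in D351 and 0 in D16, and their median log2 ratio was 1.20. Col1a2 was higher in D16 by its other probe set, with a log2 ratio of -0.62, and that of Col1a1 gave 0.41. The other measured probe sets of Col3a1, Col5a1 and Col6a1 were past 2-fold in D351. Smooth muscle contractile genes had 8 of 14 and 0, with a median of 1.25. Basement membrane genes had 5 of 12 and 0, with a median of 0.82. Averaged over probe sets, the median was 0.67 for the elastic fibre and microfibril genes, 1.14 for the collagens and 1.25 for smooth muscle. The medians of these 3 lists are thus close only in some settings. The share of elastic fibre and microfibril genes past 2-fold was 3 of 6, beside 10.6% of all genes. Mfap2, the smooth muscle genes Cnn1, Myh11 and Des and the basement membrane gene Lama5, all past 2-fold, reached the floor in D351 alone. Their presence in these counts thus required a difference. In all, 10 smooth muscle genes reached the floor in D16 and 14 in D351, and 9 and 12 basement membrane genes did. Averaged over probe sets, the counts past 2-fold were 2 for the elastic fibre and microfibril genes, 6 for the collagens and 8 for smooth muscle. With so few genes, lists chosen with these data known and 1 array per clone, no difference between the lists or from all genes was tested.

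Marker lists of smooth muscle, fibroblasts and other cell types were set beside these results. Acta2 in the smooth muscle list and Thy1 in the fibroblast list are also defining markers of these cells. The sums below are therefore not signal of other cell types alone. The summed level of 15 smooth muscle genes came to 5276 for D16 and 11223 for D351, and the summed level of 12 fibroblast genes to 8852 and 12141. Of the fibroblast genes 11 reached the floor in each clone, with 5 past 2-fold in D351 and 1 in D16. The latter was S100a4, with 1835 in D16 and 414 in D351, and Thy1 was also lower in D351, within 2-fold, at 1535 and 1041. The 5 higher in D351 by their brightest probe sets were Col1a1, Col1a2, Lum, Postn and Ddr2, the last at 104 in D16 and 340 in D351. Without Col1a1 and Col1a2, which the collagen list also holds, the summed fibroblast level was 5619 in D16 and 4936 in D351, the opposite direction. That sum includes the high level of S100a4 in D16. By count, 3 of its 9 measured genes passed 2-fold in D351 and 1 in D16, and their median log2 ratio was 0.07. Of 10 endothelial genes, 8 were below the floor in both clones, Pecam1 was near it at 30.8 and 20.2, Flt1 measured 16.2 and 66.1 and was at least 3.80-fold higher in D351 (its other probe set at least 1.46 on the log2 scale), and the summed level was 85.9 and 113. Of 7 haematopoietic genes, 3 were below the floor in both, with summed levels of 104 and 99.7, and Cd68, at 3.74 and 36.9, was at least 2.12-fold higher in D351. Cd68 reached the floor in D351 alone. The other measured genes of that list had negative log2 ratios by their brightest probe sets, near the floor, and the list median was -0.44. The 14 cell cycle genes had summed levels of 5881 in D16 and 1925 in D351, with 10 past 2-fold in D16. The part of smooth muscle, fibroblast, endothelial, haematopoietic and cell cycle differences in the elastic fibre and microfibril results was not tested. The 3' probe set of Actb divided by its 5' one, a measure of RNA integrity, gave 1.81 for D16 and 1.37 for D351, and the same ratio of Gapdh 1.56 and 1.44. Their part was not tested either.

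The genes most like each of these genes were those with the smallest distance in log2 level over the 2 arrays, among 5198 genes measured in both clones. With 2 arrays many genes have nearly the same pair of levels, so likeness of this kind is weak. For Ltbp1 they were Akap12, at 67.5 and 309 (distance 0.13), and Ginm1, at 58.8 and 300.1 (0.22), and 16 genes lay within 0.5. For the brighter Mfap5 probe set they were Serpina3n, at 43.0 and 167, and Iars2, at 41.9 and 173, with 39 genes within 0.5. For Lox they were Tspo, at 1244 and 1708, and the procollagen processing gene Pcolce, at 1277 and 1633, with 49 genes within 0.5. Fbln2 had App, at 1686 and 2354, and Nme2, at 1984 and 2398, with 16 within 0.5. Fbln1 had Scamp1, whose probe set can also bind other transcripts, and Vps4a, with 343 genes within 0.5. Mfap2, below the floor in D16, has no such neighbours.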

How the data were processed

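The authors deposited 1 linear intensity for each probe set and array. How it was computed and scaled is not given in the sources used here. Detection calls were not used. Of 12488 probe sets, 66 controls were left out. Of the other 12422, 10833 had 1 symbol in the platform annotation (10817 updated by Entrez gene number to RefSeq, GRCm38.p6), 396 had several and 1193 none; only the first kind named a gene. The annotation is that of the array's version 2, whereas the labels name U74A without a version. Probe sets that changed between versions were not identified here.

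Arrays were scaled to a common median log2 level over probe sets that reached the floor on both arrays (factors 0.983 for D16 and 1.02 for D351). Values below the floor were raised to it and then log2 ratios were taken, so a gene below it in 1 clone has only a bound. A gene was read by its probe set of highest mean level. No test was made with 1 array per clone, and the number of arrays limits the precision. Calls at 2-fold were also made with other scalings, floors, probe set rules and thresholds (1.5-fold and 3-fold). The members and lists were chosen with earlier results of these data known. The rule allowed naming all members, list genes at least 2-fold apart, defining markers and the 2 nearest genes of each member, and not all of these are named. Other genes are marked, except Thy1 and Pecam1, given as cell type markers. The functions were tested on simulated arrays. No protein sequences were used here, so planned protein comparisons were not made. Python 3.11.15, numpy 2.4.6, pandas 2.3.3, statsmodels 0.14.6 and matplotlib 3.10.9 were used.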

Additional observations from a re-analysis of the deposited data

How the results depend on the processing

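No paired analysis was possible because there was 1 array per clone, and leaving out a replicate was likewise impossible. Of 60 ratios of the elastic fibre and microfibril genes under the alternatives, 55 stayed within the probe set SD of the main value, 4 moved by more and 1 reversed. The reversal was Mfap5 read by its second brightest probe set (-0.63), a setting chosen after seeing the data, under which the median of the set was 0.52. The 4 that moved were Mfap2 with either other floor (3.78 and 1.56) or a pseudocount of 16 in place of the floor (2.68), and Mfap5 averaged over its probe sets (0.67). The count past 2-fold in D351 was 2 to 4 in all settings, and that in D16 was 0. The median of the set was 0.655 with the floor at the 25th percentile and 0.67 with the pseudocount, as Eln then entered at a log2 ratio near 0, and 0.67 with probe sets averaged.

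For the 6 pathway lists together, the genes higher in D351 numbered 23 with scaling on the hybridization controls, 25 at 1.5-fold and 6 at 3-fold, against 15. Those higher in D16 numbered 5 with the floor at the 25th percentile, against 3. Over all genes, the counts higher in D351 and in D16 were 1214 and 250 with hybridization controls, 371 and 360 with the floor at the 60th percentile, 1285 and 1282 at 1.5-fold, and 253 and 159 at 3-fold. With the floor at the 25th percentile 871 genes were higher in D16. Of 279 values of single lists, 254 stayed the same by these limits. Signal over background limits Eln, Mfap2 and the dimmer Mfap5 probe set.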
